A study of Rattus norvegicus with 18 samples.

Results

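Messenger RNA levels of 10 circadian clock genes were followed through 18 kidney libraries of a study of diabetic nephropathy. The genes were chosen by name and identifier, as the core members of the clock: Arntl, Clock, Per1, Per2, Per3, Cry1, Ciart, Nr1d1, Nr1d2 and Dbp. The choice was made with earlier results of these data known. All 10 are among the 55335 identifiers of the count table, and all 10 were among the 19233 that passed the filter on low counts. The treated animals (Treat) were model animals given TSK, named in the labels by this abbreviation alone, at 500 mg/kg per day by mouth for 4 weeks. The model animals (DN) received a high-fat diet and an injection of STZ (streptozotocin, a toxin of insulin-producing cells) and no TSK. The controls (Ctrl) had ordinary feed and solvent by gavage. Each group held 6 rats and 6 libraries of polyadenylated RNA from whole kidney, and the labels give no age, sex or strain. The labels also give no time of harvest, so a difference in the time of day at which kidneys were taken and an effect of the model or of TSK cannot be told apart in any comparison of these genes.

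The clock of mammalian cells is a feedback loop of transcription. The proteins of Clock and Arntl (also called Bmal1) bind E-box sequences together and switch on the Per and Cry genes, whose proteins accumulate over the day and block their own activators. In a second loop the nuclear receptors encoded by Nr1d1 and Nr1d2 (REV-ERB alpha and beta) repress Arntl through ROR response elements. In healthy rodent tissues Arntl therefore peaks in roughly the opposite phase to Per, Nr1d1 and Dbp. The kidney has its own clock, and filtration and the excretion of sodium and water follow a daily rhythm.

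The libraries held 22040987 to 28135824 counts in Treat, 25505257 to 35275498 in DN and 26312358 to 34140706 in Ctrl. All identifiers carry the mouse prefix ENSMUSG although the labels name rats, so differences between rat reads and the mouse sequence could affect how completely a gene was counted, and levels are compared between groups and not between genes. Treat library 1 and Ctrl library 4 stood apart from the other libraries on the second principal component of all genes (10.6% of the variance), at 78.8 and 54.2 against -26.8 to 25.2. Ctrl library 4 also differed from the other 5 controls on 5 identifiers for which those controls were separated all-or-none from every other library, with at least 50 counts on one side and more than 20 times fewer on the other. No such identifier was found when any other control took its place. Kidney marker genes could not be looked up, because the files do not pair identifiers with names. In whole tissue, fewer cells of a type and less RNA per cell cannot be told apart.

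The first question is how the clock genes differed between DN and control kidneys, whatever the source of a difference. In DN kidneys Arntl rose and 7 of the 10 genes fell: Per1, Per2, Per3, Cry1, Ciart, Nr1d2 and Dbp. Clock and Nr1d1 were not called. A gene was called at a Benjamini-Hochberg adjusted p under 0.05 over all 19233 genes in edgeR's quasi-likelihood test, and at this threshold 16.9% of all genes were higher and 15.3% lower in DN. All 8 called clock genes also differed by at least 2-fold, and 8.96% of all genes were both called and at least 2-fold different. The groups did not overlap for those same 8 genes, 1 higher and 7 lower, against 16.2% of all genes in either direction. The median log2 fold change of the 10 genes was -1.21, beside 0.01 over all genes tested, and the median size of change without regard to sign was 1.61, beside 0.30. Because the genes were chosen with earlier results known, shares and medians over all genes are a background here and not an independent test.

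**Figure D1:**
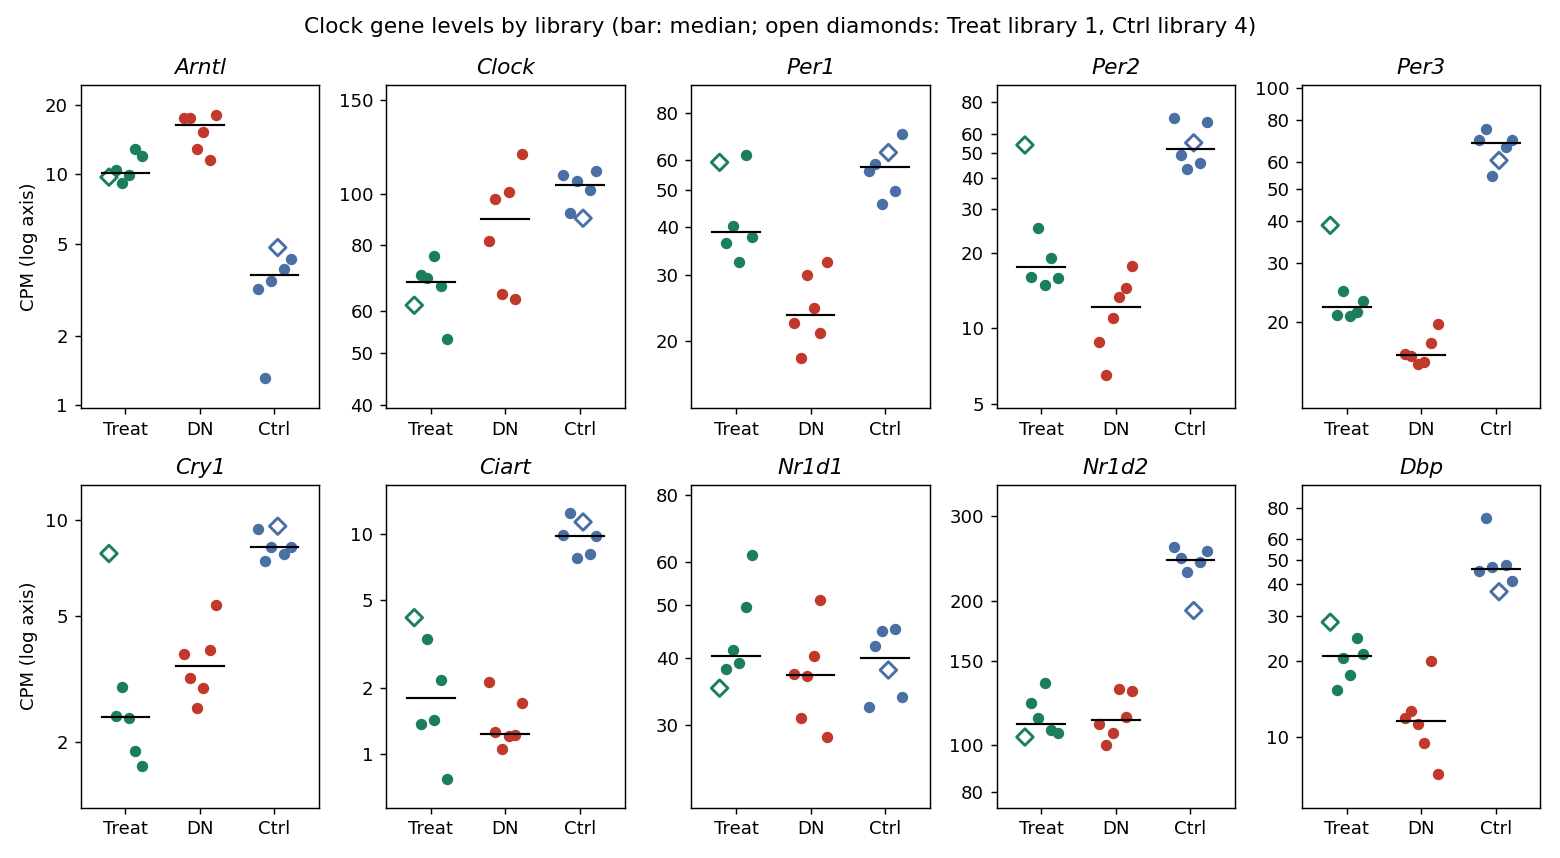
Level of each clock gene in each library, in CPM (counts per 1000000 counts of the library after TMM scaling, log axes), for Treat, DN and Ctrl; bars are group medians (n = 6 each) and open diamonds mark Treat library 1 and Ctrl library 4. For 8 of the 10 genes no DN library reached the range of the controls, and Arntl is the gene that lay above it.

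Among the activators, Arntl (ENSMUSG00000055116) encodes the DNA-binding partner of the protein of Clock. It stood at 9.16, 10.2 and 12.8 CPM (lowest, median and highest library) in Treat, at 11.5, 16.3 and 18.04 CPM in DN and at 1.31, 3.66 and 4.81 CPM in Ctrl. Every DN and every treated library was above every control. In DN against Ctrl, Arntl rose 4.44-fold (log2 fold change 2.15, SE 0.22, adjusted p = 1.24e-06, edgeR). Its lowest control value came from Ctrl library 2 and its highest from Ctrl library 4. Clock (ENSMUSG00000029238), which encodes the other partner of the dimer, moved little by comparison, at 53.2, 68.1 and 76.3 CPM in Treat, 63.2, 89.6 and 118.8 CPM in DN and 89.9, 103.7 and 110.2 CPM in Ctrl. DN libraries spanned and exceeded the control range, and the log2 fold change of Clock was -0.21 (SE 0.13, adjusted p = 0.248).

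The promoter of Arntl is shown because it holds the element through which the second loop is known to act. The window runs from 250 bases before to 50 after the RefSeq start site, at chr1:176766078-176766377 on the plus strand of the rat assembly GRCr8. Capitals mark TAGGTCA, the core of a ROR response element, which was searched on both strands and begins 16 bases before the start site. Of 33469 RefSeq promoter windows of this length, 2.63% hold it.
Arntl: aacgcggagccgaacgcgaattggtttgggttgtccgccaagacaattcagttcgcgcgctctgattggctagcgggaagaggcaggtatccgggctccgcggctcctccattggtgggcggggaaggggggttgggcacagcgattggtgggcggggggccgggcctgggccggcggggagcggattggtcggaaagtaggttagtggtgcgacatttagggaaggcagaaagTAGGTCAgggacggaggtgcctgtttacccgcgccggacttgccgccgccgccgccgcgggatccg

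The repressors Per1, Per2, Per3, Cry1 and Ciart all fell in DN. The period genes Per1, Per2 and Per3 encode the proteins that carry the repressing complex into the nucleus. Per1 (ENSMUSG00000020893) stood at 32.3, 38.9 and 61.9 CPM in Treat, at 18.04, 23.4 and 32.4 CPM in DN and at 46.0, 57.4 and 70.1 CPM in Ctrl. All DN libraries were below all controls, and Per1 fell by 1.21 on the log2 scale (SE 0.17, adjusted p = 4.83e-05). Per2 (ENSMUSG00000055866) stood at 14.9, 17.6 and 54.0 CPM in Treat, at 6.50, 12.2 and 17.7 CPM in DN and at 43.4, 52.2 and 69.6 CPM in Ctrl. In DN it fell 4.59-fold (log2 fold change -2.20, SE 0.30, adjusted p = 3.25e-05), and again no DN library reached the controls. Per3 (ENSMUSG00000028957) stood at 20.8, 22.2 and 38.9 CPM in Treat, at 15.0, 16.0 and 19.8 CPM in DN and at 54.5, 68.1 and 75.4 CPM in Ctrl. In DN it fell 4.00-fold (adjusted p = 3.43e-08, with an SE of 0.14 on the log2 scale), and it ranked 9 among all genes tested by p.

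Cry1 (ENSMUSG00000020038) encodes a cryptochrome, the other arm of the repressing complex. It stood at 1.69, 2.41 and 7.84 CPM in Treat, at 2.57, 3.49 and 5.41 CPM in DN and at 7.44, 8.22 and 9.55 CPM in Ctrl. DN libraries lay below all controls, and Cry1 fell by 1.21 on the log2 scale (SE 0.30, adjusted p = 0.00482). Ciart (ENSMUSG00000038550, also called Chrono), a repressor of the dimer of CLOCK and ARNTL in mice, had the largest change of the 10 genes. It stood at 0.766, 1.80 and 4.17 CPM in Treat, at 1.05, 1.24 and 2.12 CPM in DN and at 7.77, 9.85 and 12.5 CPM in Ctrl. In DN it fell 6.93-fold (log2 fold change -2.79, SE 0.32, adjusted p = 4.72e-06). DN libraries held 31 to 60 counts of Ciart and Ctrl libraries 212 to 389.

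The promoters of Per2 and Ciart are shown because these genes had the largest falls and carry the sequences that clock proteins are known to bind. Windows are again RefSeq's on GRCr8, chr9:99496944-99497243 on the minus strand for Per2 and chr2:186112197-186112496 on the minus strand for Ciart, each written 5′ to 3′ on the strand of the gene. Capitals in Per2 mark the D-box TTATGTAA, 192 bases before the start site, and the E-box variant CACGTT, 62 bases before it. Capitals in Ciart mark 3 copies of the E-box CACGTG, which begin 93, 35 and 21 bases before the start site. Both strands were searched, and no 2 matches overlapped.
Per2: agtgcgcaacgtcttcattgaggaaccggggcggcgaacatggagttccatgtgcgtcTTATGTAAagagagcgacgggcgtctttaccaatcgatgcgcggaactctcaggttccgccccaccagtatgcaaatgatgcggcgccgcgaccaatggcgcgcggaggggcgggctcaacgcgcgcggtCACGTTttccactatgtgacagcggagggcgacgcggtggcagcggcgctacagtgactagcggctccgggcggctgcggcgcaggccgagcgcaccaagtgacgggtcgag
Ciart: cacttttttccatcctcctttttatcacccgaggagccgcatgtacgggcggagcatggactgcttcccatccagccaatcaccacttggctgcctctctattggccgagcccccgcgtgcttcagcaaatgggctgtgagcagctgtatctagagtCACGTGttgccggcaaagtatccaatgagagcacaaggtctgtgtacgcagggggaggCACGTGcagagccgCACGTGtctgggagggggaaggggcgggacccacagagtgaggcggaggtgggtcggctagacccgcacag

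CACGTG is present in 6.42% of all windows, CACGTT in 4.83% and TTATGTAA in 0.893%. In all, 9 of the 10 genes had a window in the table, 11 windows together, and 4 genes held any of the 4 motifs. Beside Arntl, Per2 and Ciart this was Nr1d1, with a CACGTT match in 1 of its windows and a CACGTG match in the other. Cry1 was not in the table. The windows of Per1, Per3, Nr1d2 and Dbp, which also fell in DN, held none of these motifs. Nr1d1, which held matches, was not called in DN against Ctrl. A relation of the motifs to the changes was not tested. A match describes these letters and does not show that a protein binds there.

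In the second loop the receptor pair differed in what was called. Nr1d2 (ENSMUSG00000021775) stood at 104.1, 110.7 and 135.0 CPM in Treat, at 100.2, 112.8 and 131.0 CPM in DN and at 190.8, 242.8 and 258.3 CPM in Ctrl. In DN it fell 2.05-fold (log2 fold change -1.03, SE 0.09, adjusted p = 3.17e-07), and its DN libraries were all below the controls. Nr1d1 (ENSMUSG00000020889) stood at 35.1, 40.2 and 61.8 CPM in Treat, at 28.5, 37.1 and 51.1 CPM in DN and at 32.5, 39.9 and 45.2 CPM in Ctrl. The DN range enclosed that of the controls, and the log2 fold change of Nr1d1 was -0.07 (SE 0.15, adjusted p = 0.752). The difference between these receptors' changes was not tested.

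Dbp (ENSMUSG00000059824), an output gene whose protein activates D-box promoters and which is itself driven through E-boxes, stood at 15.3, 20.9 and 28.4 CPM in Treat, at 7.15, 11.6 and 20.04 CPM in DN and at 37.4, 45.9 and 72.9 CPM in Ctrl. DN libraries lay below every control. Dbp fell 4.01-fold (log2 fold change -2.01, SE 0.22, adjusted p = 2.27e-06).

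For all 8 genes called in DN against Ctrl, Ctrl library 4 lay outside the range of the DN libraries, on the side of the other controls. For 5 of the 10 genes it was outside the range of the other 5 controls. It lay toward DN for Arntl (4.81 CPM, other controls 1.31 to 4.28) and Clock (89.9, others 92.0 to 110.2). The same held for Nr1d2 (190.8, others 229.1 to 258.3) and Dbp (37.4, others 41.2 to 72.9). Cry1 lay away from DN (9.55, others 7.44 to 9.38). Without Ctrl library 4, the log2 fold changes were 2.26 for Arntl, -2.20 for Per2, -2.02 for Per3, -2.75 for Ciart, -2.07 for Dbp and -1.09 for Nr1d2. The same 8 genes were called.

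**Figure D2:**
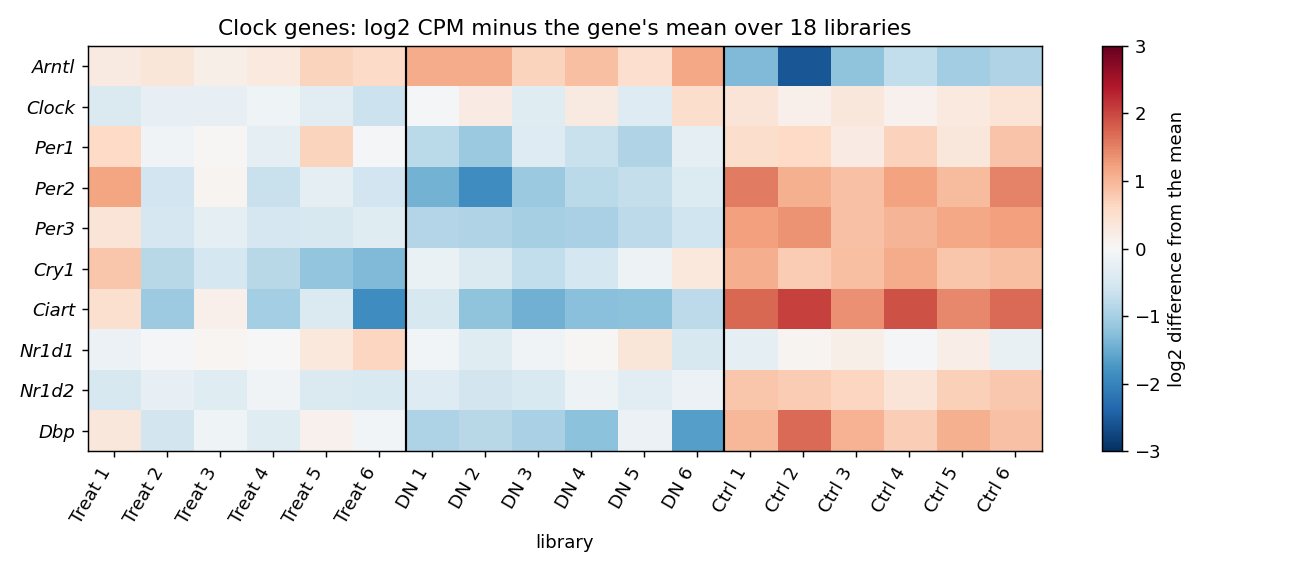
Log2 CPM of each clock gene (rows) in each library (columns, Treat, DN and Ctrl from left to right) minus the mean of that gene over the 18 libraries. Arntl is below its mean in the 6 controls while Per1, Per2, Per3, Cry1, Ciart, Nr1d2 and Dbp are above theirs. Arntl is above its mean in every treated and DN library. Treat library 1 is also above the mean for Per1, Per2, Per3, Cry1, Ciart and Dbp. So are Treat library 3 for Per1, Per2 and Ciart and Treat library 5 for Per1 and Dbp.

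The second question is how treated kidneys differed from DN kidneys, where harvest time and TSK again cannot be told apart. Treated kidneys had more Per1 and Per3 than DN kidneys, and the other 8 genes were not called. The background at this threshold was 0.536% of all genes higher and 0.858% lower. In Treat, Per1 rose 1.80-fold (log2 fold change 0.85, SE 0.17, adjusted p = 0.0193, edgeR), and 6 of 6 treated libraries were above the DN median. Both groups met at 32.3 CPM in the lowest treated and 32.4 CPM in the highest DN library. Per3 rose 1.51-fold (log2 fold change 0.60, SE 0.14, adjusted p = 0.0375). Per3 was the single clock gene whose treated and DN libraries did not overlap, against 1.80% of all genes. Both calls were near the threshold. Over 29 alternative settings the adjusted p ran from 0.000265 to 0.0721 for Per1, which lost its call in 5, and from 0.00265 to 0.102 for Per3, which lost it in 11. The log2 fold changes stayed between 0.73 and 0.99 for Per1 and between 0.43 and 0.74 for Per3.

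Dbp and Per2 had differences of similar size that missed the threshold. Dbp had a log2 fold change of 0.82 (SE 0.21, adjusted p = 0.0597) and Per2 one of 1.01 (SE 0.30, adjusted p = 0.0935), each with 6 of 6 treated libraries above the DN median. DESeq2 called both, with adjusted p = 0.00777 for Dbp and 0.0157 for Per2. Ciart had a log2 fold change of 0.63 (SE 0.31, adjusted p = 0.328) and Nr1d1 one of 0.24 (SE 0.15, adjusted p = 0.453). No clock gene was called lower by edgeR or DESeq2. Arntl (log2 fold change -0.53, SE 0.21, unadjusted p = 0.0181 and adjusted p = 0.204) and Clock (log2 fold change -0.41, SE 0.13, unadjusted p = 0.00703 and adjusted p = 0.137) were the 2 genes with a negative difference at an unadjusted p under 0.05. Limma voom with library weights called Clock lower (adjusted p = 0.0432). Cry1 had a log2 fold change of -0.18 (SE 0.30, adjusted p = 0.816) and Nr1d2 one of -0.01 (SE 0.09, adjusted p = 0.979), and the sign of Nr1d2 turned under RLE size factors and under library totals. The median log2 fold change of the 10 genes was 0.42, beside -0.01 over all genes, and the median size of change was 0.57, beside 0.17.

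**Figure D3:**
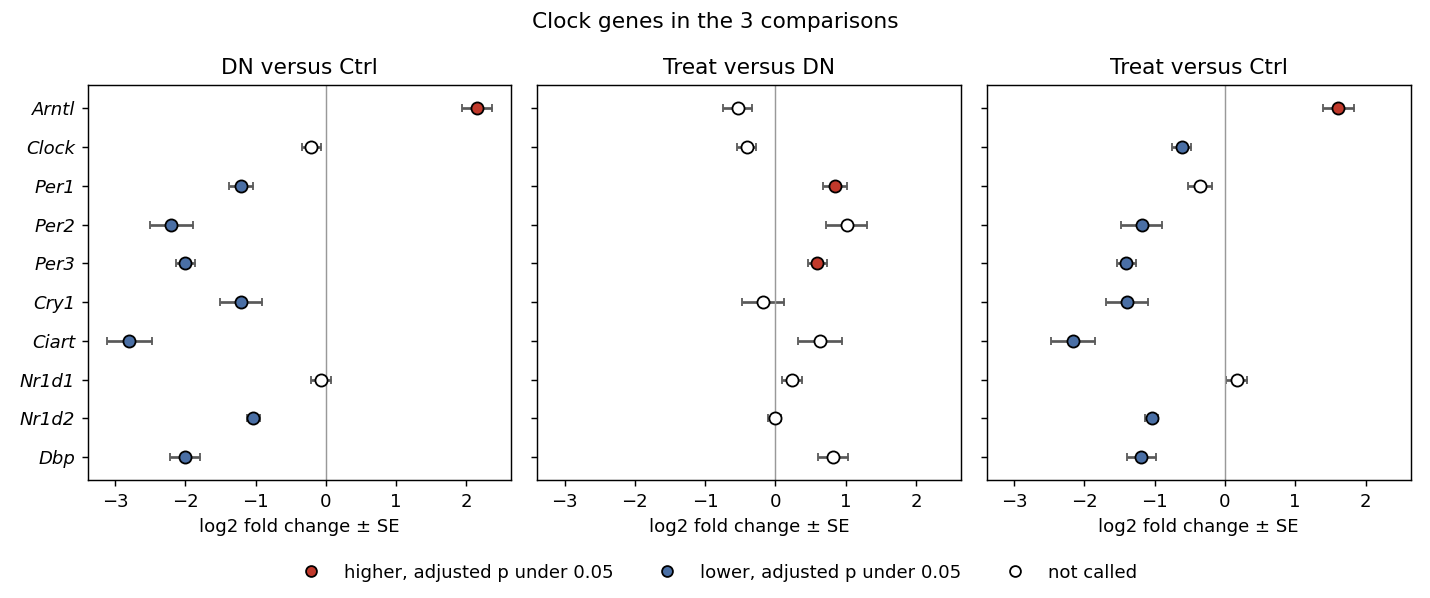
Log2 fold change with its SE (edgeR, all 18 libraries in 1 fit) of each clock gene for DN versus Ctrl, Treat versus DN and Treat versus Ctrl; filled points passed an adjusted p of 0.05. In Treat versus DN the 2 filled points are Per1 and Per3, and the DN libraries enter both of the first 2 panels.

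Treat library 1 carried part of these values. It was the highest of the 6 treated libraries for Per2, Per3, Cry1, Ciart and Dbp, and its Per1, Per2, Cry1 and Nr1d1 levels lay within the control range. Other treated libraries also lay within that range for Per1 (library 5, 61.9 CPM) and for Nr1d1 (libraries 2, 3 and 4, at 38.2, 41.4 and 39.1 CPM). In Treat library 1 Per2 reached 54.0 CPM against 14.9 to 25.2 CPM in the other treated libraries, and Cry1 reached 7.84 CPM against 1.69 to 2.98 CPM. Its Arntl level was not like that of a control, at 9.71 CPM beside 9.16 to 12.8 CPM in the other treated libraries. Without this library the log2 fold change in Treat against DN was 0.60 for Per2 (adjusted p = 0.157), 0.35 for Ciart (adjusted p = 0.625) and -0.68 for Cry1 (adjusted p = 0.0647). Per1 at 0.75 (adjusted p = 0.0265) and Per3 at 0.43 (adjusted p = 0.0190) kept their calls, and 446 genes were called in all, against 268 with it. The part of whatever sets Treat library 1 apart in these levels was not tested.

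The third question is how far treated kidneys still stood from the controls. In Treat, Arntl was higher than in Ctrl and 7 genes were lower: Clock, Per2, Per3, Cry1, Ciart, Nr1d2 and Dbp. The background was 23.0% of all genes higher and 21.9% lower. Arntl was 3.06-fold higher (log2 fold change 1.62, SE 0.21, adjusted p = 1.43e-05), Ciart 4.48-fold lower (log2 fold change -2.16, SE 0.31, adjusted p = 3.17e-05) and Per3 2.64-fold lower (log2 fold change -1.40, SE 0.14, adjusted p = 4.73e-07). These differences exceeded the spread between libraries, since the treated and control ranges of the 3 genes did not meet. In all, 6 of the 10 genes had groups that did not overlap, 1 higher and 5 lower, against 24.7% of all genes.

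Dbp was 2.28-fold lower in Treat than in Ctrl (log2 fold change -1.19, SE 0.21, adjusted p = 0.000222) and Nr1d2 2.06-fold lower (log2 fold change -1.04, SE 0.09, adjusted p = 1.70e-07). Per2 was 2.27-fold lower (log2 fold change -1.18, SE 0.29, adjusted p = 0.00319) and Cry1 2.63-fold lower (log2 fold change -1.39, SE 0.30, adjusted p = 0.00118), with Treat library 1 inside the control range for both. Without that library their log2 fold changes were -1.59 for Per2 and -1.89 for Cry1. Clock was 1.53-fold lower (log2 fold change -0.61, SE 0.13, adjusted p = 0.00132), with every treated library below every control. Per1 was not called with all libraries (log2 fold change -0.36, SE 0.17, adjusted p = 0.0940). Without Treat library 1 it was called (log2 fold change -0.46, adjusted p = 0.0355). Nr1d1 had a log2 fold change of 0.17 (SE 0.15, adjusted p = 0.377).

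Set side by side, the comparisons share libraries, and their values are given for each gene without a test of their relation. Arntl changed by 2.15 on the log2 scale in DN against Ctrl, by -0.53 in Treat against DN and by 1.62 in Treat against Ctrl. For Dbp these log2 fold changes were -2.01, 0.82 and -1.19, for Per2 -2.20, 1.01 and -1.18, and for Per1 -1.21, 0.85 and -0.36. For Nr1d2 they were -1.03, -0.01 and -1.04. Cry1 had -1.21, -0.18 and -1.39.

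**Figure D4:**
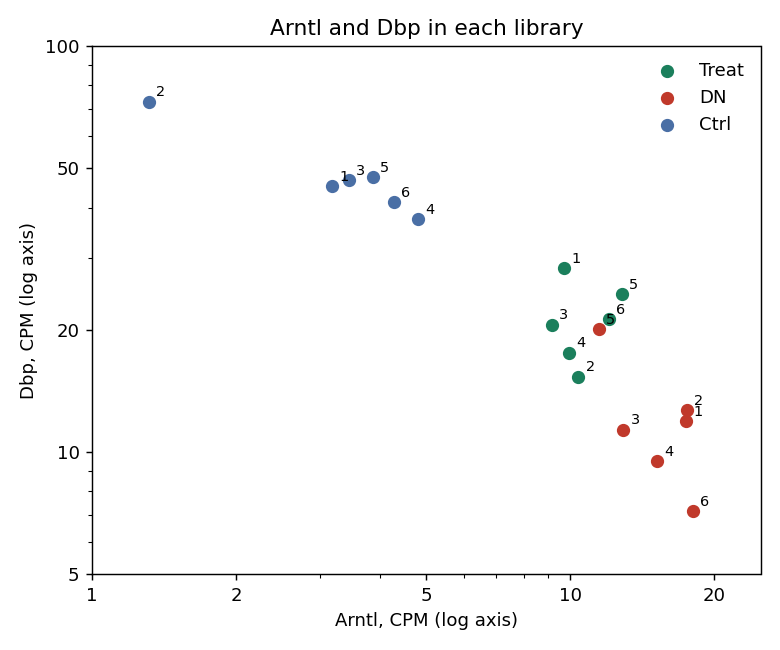
Arntl against Dbp in each library (CPM, log axes; numbers are the replicate numbers of the labels; n = 6 for each of Treat, DN and Ctrl). Controls lie at low Arntl and high Dbp, DN libraries at high Arntl and low Dbp, and treated libraries between them, with DN library 5 among the treated ones.

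The plot of Arntl against Dbp also allows the relation to be read within groups, where the comparison between groups plays no part. Within Treat Pearson's r of log2 CPM was 0.176 (n = 6, two-sided exact permutation p = 0.756, adjusted p = 0.756 over 3 relations) and Spearman's rho 0.0857 (exact p = 0.919, adjusted p = 0.919). Within DN r was -0.678 (n = 6, exact p = 0.150, adjusted p = 0.225) and rho -0.486 (exact p = 0.356, adjusted p = 0.533). Within Ctrl r was -0.974 (n = 6, exact p = 0.0194, adjusted p = 0.0583) and rho -0.771 (exact p = 0.103, adjusted p = 0.308). None of the 3 relations passed after adjustment. Without the 2 libraries farthest from the median of Arntl, r was -0.535 in Treat, -0.0289 in DN and -0.544 in Ctrl (n = 4 each). Leaving them out also narrows the range of Arntl. The sign turned in Treat and r was nearer to 0 in DN and Ctrl, so all 3 values rest on those libraries.

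Likeness between the genes was described over all 18 libraries after each group's mean log2 CPM had been subtracted, with no test, and all values share the same libraries and depths. Dbp was the clock gene least like Arntl, with r = -0.590, although within Treat alone r was 0.176 as above. Among 11811 genes with a mean of at least 5 CPM, 60 had a more negative value with Arntl. Ctrl library 2 held the lowest Arntl of the controls (1.31 CPM) and their highest Dbp (72.9 CPM, next 47.5). The value of Dbp with Arntl and its rank were not computed again without Ctrl library 2. How far they rest on that library was not tested. Clock was the clock gene most like Arntl, at r = 0.298, and 1407 genes had a higher value. This value joins opposite signs, since r of Clock with Arntl was -0.447 within Treat, 0.836 within DN and 0.321 within Ctrl. Among the 5 repressors r was positive for all 10 pairs, between 0.341 for Per1 and Cry1 and 0.815 for Per3 and Cry1. These values rested in part on Treat library 1, without which they lay between 0.00892 for Per1 and Cry1 and 0.592 for Per1 and Per2, and Per3 and Cry1 had 0.446. Within groups some pairs differed in sign, as with Per3 and Cry1 at 0.924 in Treat, 0.958 in DN and -0.307 in Ctrl.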

How the data were processed

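The authors deposited raw counts per gene, 1 column per library, with no normalization. GRCm38 and mm10, per the submitters' processing notes, are the builds used. For the aligner, counter, annotation and strandedness, the sources used here give nothing, so overlapping antisense transcripts could share reads with a gene. No other identifier had counts within 3% of a clock gene's in every library.

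Columns were assigned by the library names in the labels. P-values of the group comparisons weigh a difference against the spread between these libraries. The members and lists were chosen with earlier results of these data known, and all 10 clock genes are named. The other 53 symbols listed (further clock genes, clock and kidney outputs, glucocorticoid response, immediate early genes) and the tissue markers could not be tested, since 0 of the 55335 identifiers matched the rat gene table.

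Counts were fitted in R 4.3.3 with edgeR 4.0.16 (filterByExpr, TMM, glmQLFit, glmQLFTest, 1 coefficient per group, no covariate), and the procedure was tested on simulated data. SE came from the F statistics. A prior count of 2 entered log2 CPM. The common biological coefficient of variation was 0.273. Alternatives were DESeq2 1.42.0, RLE factors, library totals, no filter, a filter of 6 libraries above 1 CPM, fits of the 12 libraries of a comparison, a block for the replicate number, voom of limma 3.58.1 with quality weights, each library left out, and Ctrl library 4 left out with Treat library 1 or Ctrl library 5. A fit with Ctrl library 4 as the only control was added after the data had been seen. Correlations used exact permutation over all pairings (scipy 1.17.1). Promoters are RefSeq's for the rat assembly GRCr8, matched by symbol.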

Additional observations from a re-analysis of the deposited data

Results flagged for a closer look

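In groups of 6 libraries, a library was picked out when its gap to the nearest other exceeded 0.625 of the group's range. This was examined for the 10 clock genes and for the ratio of Arntl to Dbp counts, 33 groups in all, and chance picks out about 1 in 20. There were 4 such values, 3 of them from Treat library 1, which held 54.0 CPM of Per2 (next highest treated library 25.2), 38.9 CPM of Per3 (next 24.8) and 7.84 CPM of Cry1 (next 2.98). The remaining one was Dbp in Ctrl library 2, at 72.9 CPM (next highest control 47.5), the control with the lowest Arntl level.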

How the results depend on the processing

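The 1 gene higher and 7 genes lower in DN than in Ctrl came out as 1 higher and 6 to 7 lower in all 29 alternative settings. Between Treat and DN the count of 2 higher genes was 4 with DESeq2 and with library totals, 1 with no filter, 0 with the 12 libraries compared and with Ctrl replicate 4 as the only control, and 0 to 3 with single libraries left out. It was 0 without DN library 2 or 4 and 1 without Treat library 3 or 6, DN library 1 or 3 or Ctrl library 6. The cause was not tested. Leaving out a library of the group not compared could act only through the filter, scaling and spread shared by the fit. For DN against Ctrl these were the settings without a Treat library. The count of lower genes, 0, was 1 with limma voom. Between Treat and Ctrl the 7 lower genes were 3 with Ctrl replicate 4 as the only control, a fit with fewer samples that assumes this library varies like the other groups.

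Signs turned for Nr1d2 between Treat and DN (-0.01), with 0.00098 under RLE factors, 0.12 under library totals, 0.0045 with the 12 libraries compared, 0.027 with limma voom, 0.036 without both Ctrl library 4 and Treat library 1, and -0.060 to 0.032 with single libraries left out. Nr1d1 between DN and Ctrl was 0.0033 with Ctrl replicate 4 as the only control. With single libraries left out, the Arntl and Dbp correlation ran from -0.123 (without Treat library 5) to 0.574 (without Treat library 1) in Treat, from -0.793 to -0.218 (without DN library 5) in DN and from -0.993 to -0.816 (without Ctrl library 2) in Ctrl, and none passed after adjustment over 3 relations.

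Library totals moved the median of all genes by 0.13 between Treat and DN and by 0.10 between Treat and Ctrl. The share of calls that were higher was then 84.4% against 38.4%, and 64.5% against 51.2%. The 268 genes called between Treat and DN were 841 with DESeq2, 775 with library totals, 737 with limma voom, 119 with no filter, 116 with the 12 libraries compared, 102 with Ctrl replicate 4 as the only control, 593 without both Ctrl library 4 and Treat library 1, and 97 to 446 with single libraries left out. With that sole control, 601 genes were called between DN and Ctrl and 1025 between Treat and Ctrl, against 6202 and 8629.

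Libraries share only a number across groups: deviations of same-numbered libraries correlated at -0.189 to 0.185, and in no comparison did more than 2 of 6 correlate best with their own number. With the replicate block, 0 clock genes were called higher and 117 genes in all between Treat and DN, and the other counts of clock genes were as without it. Depth limits Ciart, Arntl and Cry1, with as few as 20, 41 and 44 counts per library.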

Other observations

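The ratio of Arntl to Dbp counts within a library does not depend on the scaling of libraries. It was 0.342 to 0.678 in Treat (median 0.544), 0.574 to 2.52 in DN (median 1.43) and 0.0180 to 0.129 in Ctrl (median 0.0777), n = 6 each. No treated or DN library came near the controls. Treated and DN libraries met at DN library 5 (0.574) and Treat library 2 (0.678). DN library 5 also had the lowest Arntl (11.5 CPM) and the highest Dbp (20.04 CPM) and Nr1d1 (51.1 CPM) of its group. These are values with no test, since the genes were chosen with results known.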
